A study of Mus musculus with 9 samples.

Results

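The 10 genes described here encode ligands, receptors and an inhibitor of TGF-beta, myostatin and activin signalling: the ligands Tgfb1, Tgfb2, Tgfb3, Mstn and Inhba, the receptors Tgfbr1, Tgfbr2, Tgfbr3 and Acvr2b, and the inhibitory Smad7. They were listed by symbol, and each was read from its probe set with exactly 1 gene symbol and the highest mean over the 9 arrays. All 10 were measured, among 19661 genes in all, and each had a single probe set. Expression was measured on Affymetrix arrays in cultured mouse skeletal muscle myoblasts of Balb/c background, grown in serum and basic fibroblast growth factor. There were 3 groups of 3 arrays: empty-vector cells (labelled CTAP Control, here control), Pax3-overexpressing cells and Pax7-overexpressing cells, both being paired-box transcription factors of muscle precursors and satellite cells. The sources used here do not give the vector, its promoter, the number of clones, or whether the 3 samples of a group were separate cultures. The p-values therefore measure the spread between these samples, which may be technical.

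TGF-beta ligands are secreted in a latent form and, once released, bind the type II receptor TGFBR2, which recruits and phosphorylates the type I receptor TGFBR1. Myostatin and the activins use the type II receptors ACVR2A and ACVR2B together with type I receptors. Both branches phosphorylate SMAD2 and SMAD3, which enter the nucleus with SMAD4, while SMAD7 blocks the receptors as a feedback inhibitor. In skeletal muscle, TGF-beta and myostatin are known to restrain myoblast differentiation and muscle growth, and follistatin binds and neutralises myostatin and activin.

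Values are log2 intensities of a probe set, so that a difference of 1 is a 2-fold change, and they are compared only between groups for the same gene. Errors of group values are SDs of 3 arrays and those of differences are moderated standard errors from limma, a linear model fitted to all genes. A gene passed when its Benjamini-Hochberg adjusted p over all genes was under 0.05. Array medians ran from 6.3966 to 6.4766, and arrays of a group correlated at 0.9974 to 0.9991 across genes. Pax3 read 5.83 ± 0.0707 in the control group, 11.05 ± 0.0456 with Pax3 and 6.82 ± 0.0391 with Pax7, and Pax7 read 10.51 ± 0.0809, 8.18 ± 0.0648 and 12.28 ± 0.0302. Xist, the RNA of the inactive X chromosome, read 4.77 ± 0.126 in the control group, 11.96 ± 0.0708 with Pax3 and 11.72 ± 0.0335 with Pax7, while the Y-linked Eif2s3y read 8.78 ± 0.0403, 3.12 ± 0.0186 and 3.08 ± 0.0136. In both comparisons with control the introduced factor and the source of the cells, as seen in these sex-linked genes, cannot be told apart, and this holds for every such value below. Between Pax7 and Pax3 arrays the 3 measured Y-linked genes differed by -0.08 to 0.05 and did not pass, while Xist was lower in Pax7 arrays (-0.24, limma adjusted p = 0.0262). Of 6 myoblast markers 1 rose and 3 fell with Pax3, and 1 rose and 4 fell with Pax7, while the list mean lay between 11.16 and 11.42 in all arrays. Myf5 rose (1.97 and 2.02), Des (-0.52 and -1.33), Cdh15 (-0.73 and -0.65) and Itga7 (-0.47 and -0.70) fell in both, and Myod1 fell with Pax7 (-0.43) and differed by -0.12 with Pax3, which did not pass. The 8 markers of differentiated muscle, such as Myog and Ckm, averaged 10.42 to 10.64 in the control group, 8.75 to 8.78 with Pax3 and 7.79 to 7.97 with Pax7, and all 8 fell in both comparisons with control. Of 7 measured fibroblast markers 1 rose and 1 fell in Pax3 arrays, and 2 rose and 1 fell in Pax7 arrays, with list means of 5.66 to 5.89. Among 5 epithelial markers 3 rose in both, and the list mean was 6.07 to 6.18 in the control group, 6.27 to 6.37 with Pax3 and 6.77 to 6.85 with Pax7. Of 5 endothelial markers 1 rose in Pax3 arrays and 2 in Pax7 arrays, of 5 leukocyte markers 1 rose in each (Cd68), and of 5 adipocyte markers 0 and 2 rose, all with list means of 4.98 to 5.58. Cd68 read 7.36, 8.72 and 9.40 as means of the control, Pax3 and Pax7 groups. Ptprc, the defining leukocyte marker, read 4.70, 4.74 and 4.73. The part of these other genes in the results below was not tested.

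Between Pax3 and control arrays 6 of the 10 genes passed, 4 higher (Tgfb1, Tgfbr2, Tgfbr3 and Inhba) and 2 lower (Tgfb3 and Tgfbr1). The background was high: 39.6% of all genes passed in this comparison, 19.8% higher and 19.7% lower. Their median absolute difference was 0.26, against 0.114 over all genes, and their median signed difference was 0.06, against 0.016. Between Pax7 and control arrays 8 passed, 4 higher (Tgfb1, Tgfbr2, Tgfbr3 and Inhba) and 4 lower (Tgfb3, Tgfbr1, Tgfb2 and Mstn). Of all genes 43.2% passed there, 21.6% higher and 21.5% lower. The members' median absolute difference was 0.53, against 0.133 over all genes, and their signed median was -0.03, against 0.027. These comparisons share the control arrays. Without the lowest 50% of genes by mean level, 5 of 9 members passed with Pax3 and 7 of 9 with Pax7. Of all genes kept in that fit, 66.4% and 69.6% passed.

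In the direct comparison of Pax7 with Pax3 arrays 8 of the 10 genes passed, 5 higher in Pax7 arrays (Tgfb1, Tgfb3, Tgfbr1, Tgfbr2 and Tgfbr3) and 3 lower (Tgfb2, Mstn and Inhba), while 16.9% of all genes passed, 8.33% higher and 8.54% lower. The median absolute difference was 0.36, against 0.071 over all genes. Ranges of arrays were separate in 6 members for Pax3 against control, 8 for Pax7 against control and 8 for Pax7 against Pax3, where the shares over all genes were 45.1%, 55.5% and 29.4%. When a fold above 1.2 was required (limma's treat test), 2 of the 10 passed between Pax7 and Pax3 arrays, Tgfb2 and Tgfbr3, and 3.99% of all genes did. Against control 4 members passed that test with Pax3 and 6 with Pax7, where 16.6% and 19.4% of all genes did. Smad7 and Acvr2b passed in none of the 3 comparisons.

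**Figure D1:**
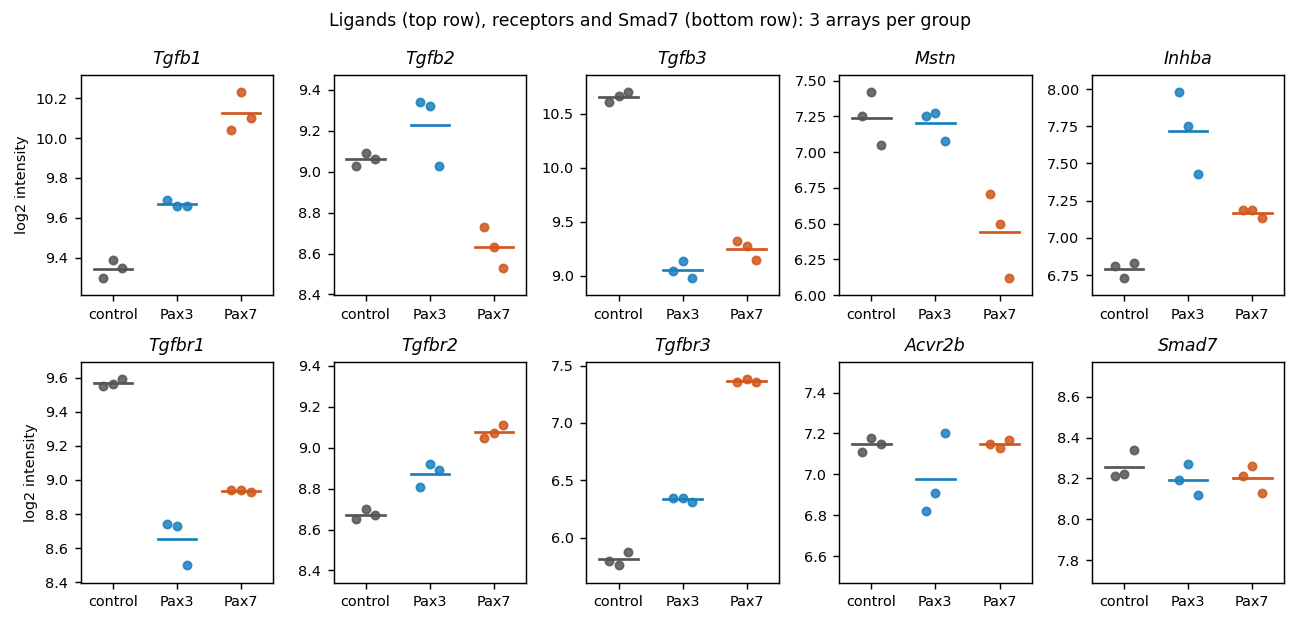
Log2 intensity (vertical axis) of each of the 10 genes in the 3 control (grey), 3 Pax3 (blue) and 3 Pax7 arrays (orange), with a line at each group mean; each panel has its own scale of at least 1 log2 unit. Tgfb3 and Tgfbr1 are highest in control arrays, Tgfbr3 climbs from 5.81 in control to 7.36 in Pax7 arrays, and Smad7 overlaps in all groups.

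The 3 TGF-beta ligands went separate ways. Tgfb3, a TGF-beta isoform of developing tissues, read 10.61, 10.66 and 10.70 in control arrays, 9.04, 9.14 and 8.98 in Pax3 arrays and 9.32, 9.28 and 9.15 in Pax7 arrays. All control arrays lay more than 1 log2 unit above every other array, and the Pax3 arrays lay just under the Pax7 arrays. Against control, Tgfb3 was 3.04-fold lower with Pax3 (log2 difference -1.60 ± 0.058, limma adjusted p = 3.12e-09) and 2.65-fold lower with Pax7 (-1.41 ± 0.058, adjusted p = 5.34e-09), the largest falls among the 10 genes. In bulk RNA, fewer cells that express a gene and less RNA per cell cannot be told apart. Between Pax7 and Pax3 arrays Tgfb3 differed by 0.20 ± 0.058 (adjusted p = 0.0413), a call that was lost on omitting any of 7 arrays singly (all 3 control arrays, Pax3 replicates 1 and 3, and Pax7 replicates 1 and 2; adjusted p of 0.0216 to 0.155 over the 9 omissions).

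Tgfb1, the most widely expressed isoform, stepped up instead. It read 9.30, 9.39 and 9.35 in control arrays, 9.69, 9.66 and 9.66 in Pax3 arrays and 10.04, 10.23 and 10.10 in Pax7 arrays. No array of a group overlapped with another group. The rise over control was 1.25-fold in Pax3 arrays (0.33 ± 0.0531, limma adjusted p = 0.000453) and 1.72-fold in Pax7 arrays (0.78 ± 0.0531, adjusted p = 3.59e-07). Pax7 arrays exceeded Pax3 arrays by 0.45 ± 0.0531 (adjusted p = 0.000146), so the order control, Pax3, Pax7 held at each step.

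Tgfb2, which signals with the help of the co-receptor TGFBR3, differed from control with opposite signs in the Pax3 and Pax7 arrays. Its values were 9.03, 9.09 and 9.06 in control arrays, 9.34, 9.32 and 9.03 in Pax3 arrays and 8.73, 8.63 and 8.53 in Pax7 arrays. Pax3 replicates 1 and 2 stood above the control arrays and replicate 3 at their level, while all Pax7 arrays stood below every other array. The fall in Pax7 arrays was 1.35-fold (-0.43 ± 0.0813, limma adjusted p = 0.0012). The difference of 0.17 ± 0.0813 between Pax3 and control did not pass (adjusted p = 0.133, 95% interval -0.01 to 0.35), although without Pax3 replicate 3 it was 0.27 (adjusted p = 0.00359), and with array weights, which give that array the least weight (0.271), 0.25 (adjusted p = 0.00715). Pax7 arrays read 1.51-fold lower than Pax3 arrays (-0.60 ± 0.0813, adjusted p = 0.000407).

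Myostatin and the activin subunit differed between the factors. Mstn, the secreted inhibitor of muscle growth, read 7.25, 7.42 and 7.05 in control arrays, 7.25, 7.27 and 7.08 in Pax3 arrays and 6.71, 6.50 and 6.12 in Pax7 arrays. Control and Pax3 arrays overlapped, and the Pax7 arrays lay below all of them with the widest spread of any group among the members (SD 0.300). With Pax7, Mstn was 1.74-fold below control (-0.80 ± 0.136, limma adjusted p = 0.000573) and 1.69-fold below Pax3 arrays (-0.76 ± 0.136, adjusted p = 0.0028). Between Pax3 and control it differed by -0.04, with a 95% interval of -0.34 to 0.26 (adjusted p = 0.857). The differentiated muscle markers given above fell in both groups.

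Inhba, whose product dimerises to form activin A, was highest in Pax3 arrays. It read 6.81, 6.73 and 6.83 in control arrays, 7.98, 7.75 and 7.43 in Pax3 arrays and 7.19, 7.19 and 7.13 in Pax7 arrays, so that the groups did not overlap although the Pax3 arrays spread widely (SD 0.277). The rise was 1.91-fold in Pax3 arrays (0.93 ± 0.108, limma adjusted p = 3.33e-05) and 1.30-fold in Pax7 arrays (0.38 ± 0.108, adjusted p = 0.0139). Without control replicate 2 the latter no longer passed (0.35, adjusted p = 0.052). Pax7 arrays were 1.47-fold lower than Pax3 arrays (-0.55 ± 0.108, adjusted p = 0.00454).

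Mstn, Tgfb2 and Inhba were the members lower in Pax7 than in Pax3 arrays, and their sequences before the gene start are shown here for that reason, with that of Tgfb1, which was higher in Pax7 arrays, for comparison. RefSeq promoter windows (build GRCm38.p6) were held for 7 of the 10 genes, in 8 windows, and the 250 bases before the annotated start were used. Tgfb3, Tgfbr3 and Smad7 were not among them. The sequences are written 5′ to 3′ on the gene's strand. Capitals mark TATAAA (the TATA box), TAAT (a homeodomain core), CANNTG (the general E-box pattern) and GGGCGG (a GC box). Each was searched on both strands, with no overlaps among the marked matches.
Mstn (chr1:53061390-53061639, plus strand): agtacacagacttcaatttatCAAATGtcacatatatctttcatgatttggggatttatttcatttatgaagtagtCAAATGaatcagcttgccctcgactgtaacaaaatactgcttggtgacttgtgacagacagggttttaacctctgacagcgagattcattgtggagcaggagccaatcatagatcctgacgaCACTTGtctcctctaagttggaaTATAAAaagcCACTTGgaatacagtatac
Tgfb2 (chr1:186705990-186706239, minus strand): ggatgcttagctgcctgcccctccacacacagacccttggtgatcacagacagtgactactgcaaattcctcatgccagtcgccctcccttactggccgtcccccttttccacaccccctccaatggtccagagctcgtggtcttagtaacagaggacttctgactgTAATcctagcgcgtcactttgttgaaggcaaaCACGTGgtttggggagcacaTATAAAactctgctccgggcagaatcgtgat
Inhba (chr13:16011601-16011850, plus strand): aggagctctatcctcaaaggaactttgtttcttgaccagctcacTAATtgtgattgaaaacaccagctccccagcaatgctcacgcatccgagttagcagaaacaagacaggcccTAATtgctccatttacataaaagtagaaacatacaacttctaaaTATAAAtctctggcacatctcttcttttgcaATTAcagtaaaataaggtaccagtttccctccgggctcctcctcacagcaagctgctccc
Tgfb1 (chr7:25686752-25687001, plus strand): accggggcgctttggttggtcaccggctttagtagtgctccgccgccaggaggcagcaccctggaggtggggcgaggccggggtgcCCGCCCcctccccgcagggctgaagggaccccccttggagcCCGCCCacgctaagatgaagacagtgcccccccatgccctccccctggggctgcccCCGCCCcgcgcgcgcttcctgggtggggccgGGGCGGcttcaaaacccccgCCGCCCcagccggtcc

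The windows of Mstn, Tgfb2 and Inhba each held 1 TATAAA, beginning 29, 31 and 91 bases before the start, and those of Tgfb1, Tgfbr1, Tgfbr2 and Acvr2b held 0. Of all 32851 windows, 12.4% held it. Mstn had 4 E-boxes, Tgfb2 and 1 of the 2 Tgfbr1 windows had 1 each, and Inhba and Tgfb1 had 0. This motif was present in 66.2% of all windows. CAGAC, the Smad-binding core (searched on both strands, not capitalised), occurred 2 times each for Mstn and Tgfb2 and 0 times for Inhba and Tgfb1. It occurred 1 time each for Tgfbr2, Acvr2b and 1 of the 2 Tgfbr1 windows, and 42.2% of all windows hold it. TAAT occurred 3 times for Inhba, 1 time for Tgfb2 and 0 times for Mstn, with 54.9% of windows holding at least 1. Tgfb1 had 5 GC boxes, Acvr2b 3, 1 Tgfbr1 window 2 and the other member windows 0, with 32.7% of all windows holding at least 1. GC content was 75.2% for Tgfb1, 53.6% for Tgfb2, 43.2% for Inhba and 38.4% for Mstn, against a median of 52.4% over all windows. These matches describe the letters of the windows and not binding by any factor.

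Among the receptors, the type I and type II TGF-beta receptors moved in opposite directions against control. Between Pax7 and Pax3 arrays both were higher in Pax7 arrays. Tgfbr1, the type I kinase that phosphorylates SMAD2 and SMAD3, read 9.55, 9.56 and 9.59 in control arrays, 8.74, 8.73 and 8.50 in Pax3 arrays and 8.94, 8.94 and 8.93 in Pax7 arrays. Control arrays were highest and Pax3 arrays lowest, without overlap. The fall was 1.87-fold in Pax3 arrays (-0.90 ± 0.061, limma adjusted p = 4.45e-07) and 1.55-fold in Pax7 arrays (-0.63 ± 0.061, adjusted p = 6.92e-06). Pax7 arrays exceeded Pax3 arrays by 0.27 ± 0.061 (adjusted p = 0.00974).

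Tgfbr2, the ligand-binding type II kinase, read 8.65, 8.70 and 8.67 in control arrays, 8.81, 8.92 and 8.89 in Pax3 arrays and 9.05, 9.07 and 9.11 in Pax7 arrays. The 3 groups lay in that order with no shared range. The rises were small, 1.15-fold in Pax3 arrays (0.20 ± 0.0437, limma adjusted p = 0.00324) and 1.32-fold in Pax7 arrays (0.40 ± 0.0437, adjusted p = 1.64e-05), and Pax7 exceeded Pax3 arrays by 0.20 ± 0.0437 (adjusted p = 0.00816).

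Tgfbr3, or betaglycan, the co-receptor that presents TGF-beta2 and also binds inhibin, had the largest rise of the 10 genes. It read 5.80, 5.76 and 5.88 in control arrays, 6.35, 6.35 and 6.31 in Pax3 arrays and 7.36, 7.38 and 7.36 in Pax7 arrays. Each group was tight and far from the next, while the control and Pax3 means (5.81 and 6.34) lay below the array medians. Relative to control, Tgfbr3 rose 1.44-fold with Pax3 (0.53 ± 0.0427, limma adjusted p = 1.93e-06) and 2.93-fold with Pax7 (1.55 ± 0.0427, adjusted p = 2.25e-10). Pax7 arrays exceeded Pax3 arrays 2.04-fold (1.03 ± 0.0427, adjusted p = 8.11e-08), a difference that stayed between 1.01 and 1.03 with any array left out.

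Acvr2b, a type II receptor for myostatin and activin, read 7.11, 7.18 and 7.15 in control arrays, 6.82, 6.91 and 7.20 in Pax3 arrays and 7.15, 7.13 and 7.17 in Pax7 arrays. Control and Pax7 arrays overlapped (95% interval of the difference -0.18 to 0.18), and Pax3 replicate 3 stood apart from the lower Pax3 replicates 1 and 2. No comparison passed (limma adjusted p of 0.132, 0.985 and 0.206). Without Pax3 replicate 3, Acvr2b differed by -0.28 between Pax3 and control (adjusted p = 0.000565) and by 0.29 between Pax7 and Pax3 (adjusted p = 0.00156), and array weights gave -0.28 and 0.28 (adjusted p = 0.00231 and 0.00327).

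Smad7, the feedback inhibitor that TGF-beta itself induces, read 8.21, 8.22 and 8.34 in control arrays, 8.19, 8.27 and 8.12 in Pax3 arrays and 8.21, 8.26 and 8.13 in Pax7 arrays. The 3 groups overlapped. The 95% intervals of its differences were -0.18 to 0.06 for Pax3 against control, -0.18 to 0.07 for Pax7 against control and -0.12 to 0.13 for Pax7 against Pax3 (limma adjusted p of 0.469, 0.49 and 0.965).

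**Figure D2:**
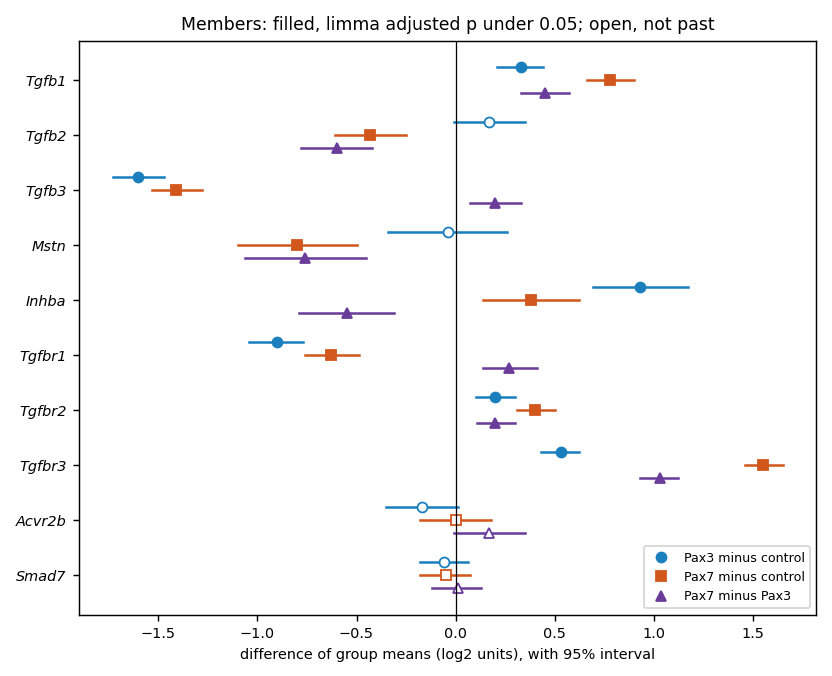
Differences of group means in log2 units (horizontal axis) with 95% intervals for the 10 genes, for Pax3 minus control (blue circles), Pax7 minus control (orange squares) and Pax7 minus Pax3 (purple triangles); filled symbols passed at a limma adjusted p under 0.05. Tgfb3 lies furthest left at -1.60 and -1.41, and Tgfbr3 furthest right at 1.55.

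**Figure D3:**
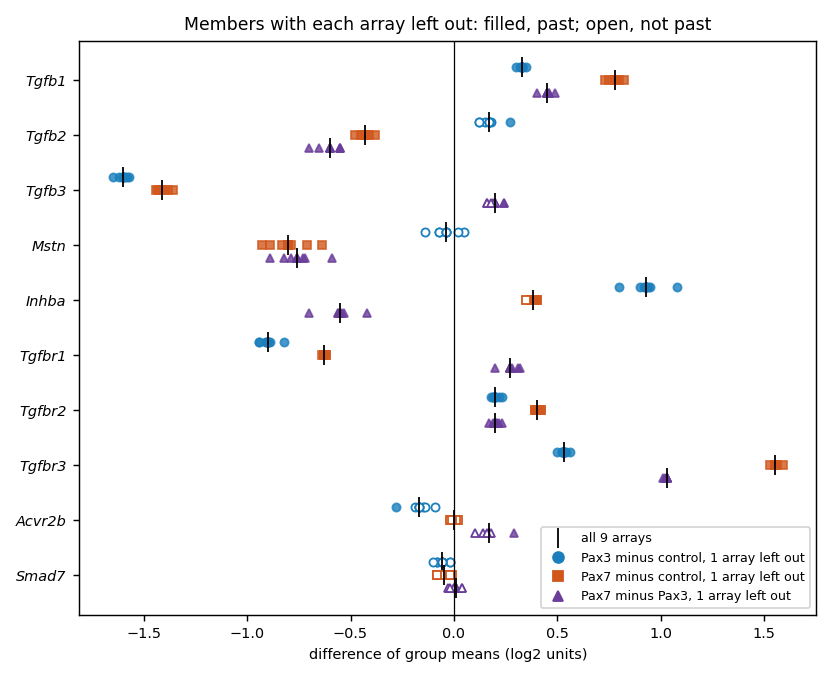
The same differences (horizontal axis, log2 units) recomputed with each of the 9 arrays left out in turn; black bars give the value from all 9 arrays, filled symbols passed and open symbols did not. The calls that come or go belong to Tgfb2 and Acvr2b in Pax3 arrays, Inhba in Pax7 arrays, and Tgfb3 and Acvr2b between Pax7 and Pax3 arrays.

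A wider list of 86 further genes of the TGF-beta and activin branches was read by role, and 81 were measured. Between Pax3 and control arrays 46 of 81 passed (56.8%), 19 higher and 27 lower, and the same numbers, 46, 19 and 27, passed between Pax7 and control arrays, where 39.6% and 43.2% of all genes passed. Between Pax7 and Pax3 arrays 23 passed (28.4%, against 16.9% of all genes), 10 higher and 13 lower. Their median absolute differences were 0.19, 0.19 and 0.10, against 0.114, 0.133 and 0.071 over all genes. Without the lowest 50% of genes, 39 of 56 wider genes passed with Pax3 and 41 of 56 with Pax7. Those counts lay nearer the background of that fit, where 66.4% and 69.6% of all genes kept passed.

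Among 9 other ligands 2 rose and 1 fell in each comparison with control, a share of 33.3% that lay below the 39.6% and 43.2% of all genes. Inhbb, the activin B subunit, read 6.57, 6.21 and 6.36 in control arrays, 7.79, 7.79 and 7.72 in Pax3 arrays and 8.81, 8.77 and 8.86 in Pax7 arrays. Inhbb rose 2.61-fold with Pax3 and 5.40-fold with Pax7 (1.39 and 2.43, SE 0.0776, limma adjusted p = 9.61e-08 and 6.75e-10), and Pax7 arrays exceeded Pax3 arrays 2.07-fold (adjusted p = 5.09e-06). Inhba was thus highest in Pax3 arrays and Inhbb in Pax7 arrays. Gdf11, the close relative of myostatin, differed from control by -0.57 in Pax3 and -0.35 in Pax7 arrays (adjusted p = 9.2e-06 and 0.000418), and Lefty1, a Nodal antagonist, rose by 0.29 and 0.40 (adjusted p = 0.0239 and 0.00372), with overlapping Pax3 and control arrays.

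Of 8 other receptors and co-receptors, 3 rose and 1 fell in Pax3 arrays (4 of 8, where 39.6% of all genes passed) and 2 rose and 1 fell in Pax7 arrays (37.5%, against 43.2%). Acvr2a, the other type II receptor of the activin branch, read 9.61, 9.57 and 9.54 in control arrays, 8.14, 8.30 and 7.99 in Pax3 arrays and 7.88, 7.82 and 7.86 in Pax7 arrays. Its fall was 2.69-fold with Pax3 and 3.29-fold with Pax7 (-1.43 and -1.72, SE 0.0674, limma adjusted p = 2.49e-08 and 3.6e-09). Acvr2b, its close relative, is given above, and the difference between these receptors was not tested. The rises were smaller: the pseudoreceptor Bambi by 0.21 and 0.44 (adjusted p = 0.0215 and 0.000198), the activin type I receptor Acvr1b by 0.26 and 0.41 (adjusted p = 0.0131 and 0.00056), and Acvrl1 by 0.19 in Pax3 arrays (adjusted p = 0.016).

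**Figure D4:**
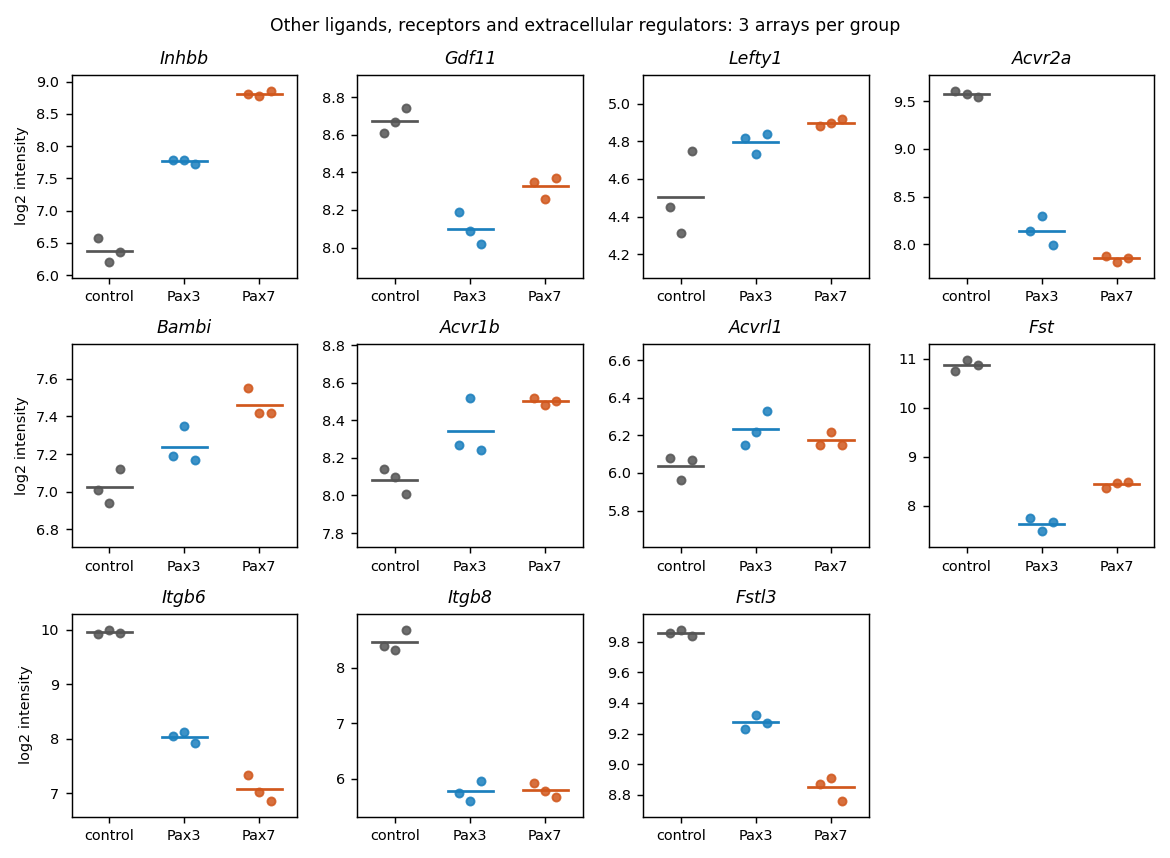
Log2 intensity (vertical axis, own scale of at least 1 log2 unit per panel) of the ligands, receptors and extracellular regulators named from the wider list, in 3 arrays per group with a line at each mean. Fst, Itgb6, Itgb8, Acvr2a and Fstl3 are highest in all 3 control arrays and Inhbb is highest in all 3 Pax7 arrays.

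Of 21 extracellular regulators 9 were lower and 2 higher in Pax3 arrays, and 8 were lower and 3 higher in Pax7 arrays. The share past the threshold was 52.4% in both, against 39.6% and 43.2% of all genes, and the list medians were -0.04 and -0.03. Follistatin Fst, which traps activin and myostatin, read 10.74, 10.97 and 10.88 in control arrays, 7.75, 7.48 and 7.66 in Pax3 arrays and 8.36, 8.47 and 8.48 in Pax7 arrays. Its fall was 9.42-fold in Pax3 arrays and 5.39-fold in Pax7 arrays (-3.24 and -2.43, SE 0.0776, limma adjusted p = 1.36e-10 and 6.76e-10), and Pax7 arrays exceeded Pax3 arrays by 0.81 (adjusted p = 3.42e-05). The follistatin-like Fstl3, also an activin-binding protein, fell too (-0.59 and -1.01, adjusted p = 2.48e-06 and 1.98e-08).

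Itgb6 and Itgb8, integrin beta subunits whose dimers with the alpha-v chain release TGF-beta from its latent complex, fell in both groups. The alpha-v chain gene Itgav, named after its values were seen, rose (0.33 and 0.35, limma adjusted p = 7.88e-05 and 5.02e-05). Itgb6 averaged 9.95 ± 0.0388 in the control group, 8.02 ± 0.0962 with Pax3 and 7.07 ± 0.238 with Pax7 (-1.93 and -2.88 against control, SE 0.0996, limma adjusted p = 5.05e-08 and 1.31e-09). Itgb8 read 8.39, 8.31 and 8.68 in control arrays, 5.75, 5.61 and 5.97 in Pax3 arrays and 5.93, 5.79 and 5.67 in Pax7 arrays (-2.68 and -2.66, SE 0.113, adjusted p = 9.98e-09 and 6.78e-09). Itgb6 was lower in Pax7 than in Pax3 arrays (-0.95, adjusted p = 6.24e-05), while the Itgb8 arrays of these groups overlapped (0.02, adjusted p = 0.943).

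Of 21 Smads and intracellular regulators 6 rose and 3 fell in Pax3 arrays (42.9%, against 39.6% of all genes), and 7 rose and 5 fell in Pax7 arrays (57.1%, against 43.2%). Smad3, a signal-carrying Smad, read 9.47, 9.45 and 9.49 in control arrays, 8.70, 8.81 and 8.62 in Pax3 arrays and 9.29, 9.29 and 9.26 in Pax7 arrays. Its differences from control were -0.76 in Pax3 and -0.19 in Pax7 arrays (SE 0.0503, limma adjusted p = 3.7e-07 and 0.00926), and Pax7 arrays exceeded Pax3 arrays by 0.57 (adjusted p = 1.82e-05). The ubiquitin ligases Smurf1 (0.86 and 0.85) and Nedd4l (0.53 and 0.88), which act on receptors and Smads, and the Smad corepressor Tgif1 (0.61 and 0.67) rose in both groups, with adjusted p of 3.49e-06 or less.

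The response genes, a list of 22 measured genes that TGF-beta is known to regulate in mesenchymal cells, changed in both directions. With Pax3, 13 of the 22 fell and 6 rose, leaving 3 that missed the threshold (median difference -0.25, against 0.016 over all genes, of which 19.7% fell and 19.8% rose). With Pax7, 12 fell and 5 rose, leaving 5 (median -0.36, against 0.027 over all genes, of which 21.5% fell and 21.6% rose). Between Pax7 and Pax3 arrays 9 were lower in Pax7 arrays and 2 higher, against 8.54% and 8.33% of all genes. Col1a1 and Col3a1 are on this list and also among the fibroblast markers. Postn, a matrix protein, fell 5.98-fold with Pax3 and 12.0-fold with Pax7 (-2.58 and -3.58, SE 0.0973, limma adjusted p = 4.26e-09 and 2.1e-10). Tagln and Cnn1, actin-binding proteins of smooth muscle and stress fibres, fell in both (-1.60 and -2.46 in Pax3, -3.20 and -2.55 in Pax7 arrays, adjusted p of 2.02e-09 or less). Tnc, the matrix glycoprotein tenascin C, went the other way and was 4.69-fold and 4.49-fold higher (2.23 and 2.17, SE 0.0504, adjusted p = 9.76e-11 and 6.6e-11). These genes answer to many other signals, and the markers of differentiated muscle fell beside them, a link that was not tested.

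**Figure D5:**
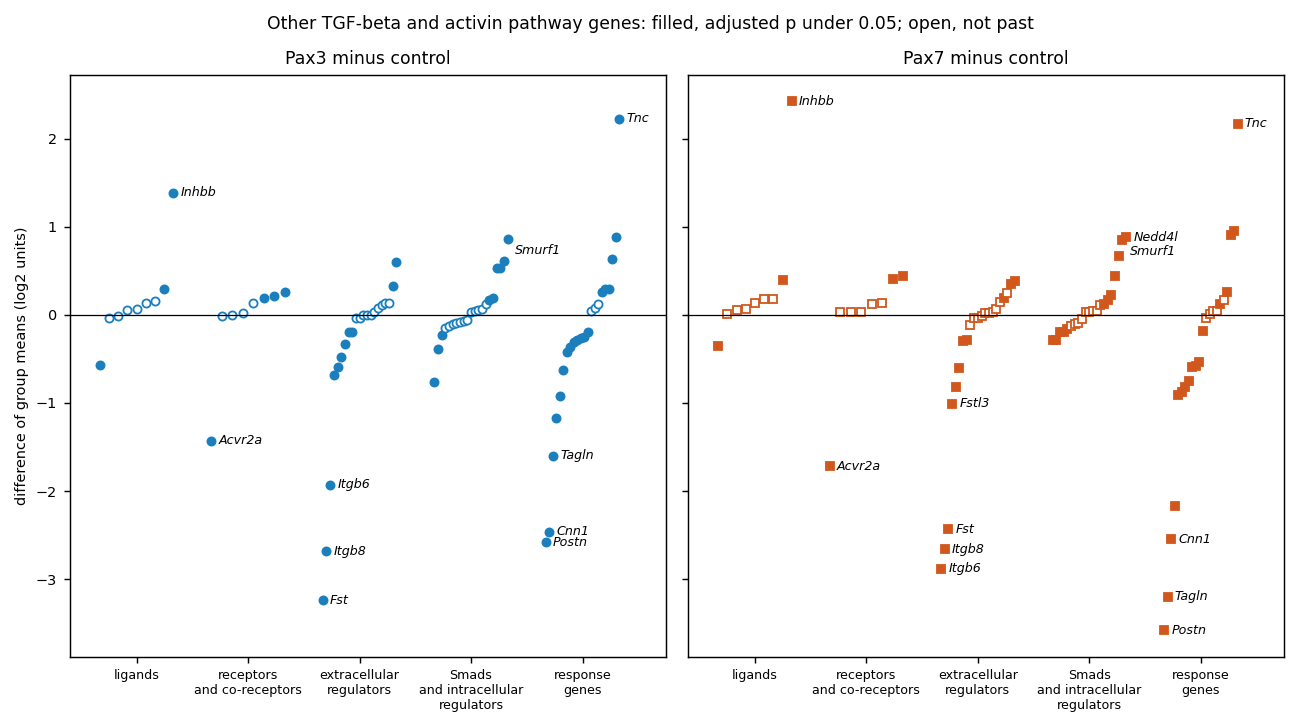
Differences of group means in log2 units (vertical axis) for the 81 measured genes of the wider list, sorted within each role, for Pax3 minus control (left) and Pax7 minus control (right); filled symbols passed at a limma adjusted p under 0.05, and named genes past 0.8 units in size carry their symbol. Fst, Itgb6, Itgb8, Tagln, Cnn1 and Postn lie lowest and Inhbb and Tnc highest.

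Tgfb3 and Tgfbr3 were the members with a difference of at least 1 log2 unit, and the genes nearest to each were found by the Euclidean distance between their pairs of differences from control. Nearest to Tgfb3 were Gnb1l (-1.62 in Pax3 and -1.39 in Pax7 arrays, distance 0.0235), the fibrillin Fbn2 (-1.59 and -1.46, distance 0.0563) and Calml4 (-1.62 and -1.34, distance 0.0658). Nearest to Tgfbr3 were Cyba (0.57 and 1.55, distance 0.0451), Tmem255a (0.57 and 1.57, distance 0.0514) and Sobp (0.55 and 1.62, distance 0.0691). The distances rest on 3 group means over 9 arrays and describe likeness of values alone.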

How the data were processed

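The labels' protocols give biotin-labelled total RNA on Affymetrix mouse arrays. The values the authors deposited are on a log2 scale. They were made with RMA, which corrects background, equalises array distributions and combines probes into probe sets, in R 2.10.0, per the submitters' processing notes. The sources used here give no genome build or probe filter. Array precision is limited by their number. All 9 columns were used, with values of 1.93 to 13.23 over 25668 probe sets. The platform annotation gave 1 symbol to 20777 probe sets, several to 232 and none to 4659. Where a gene had several probe sets (564 of 19661 genes), the one with the highest mean was used. From these values limma 3.58.1 in R 4.3.3 was fitted with a mean per group over all 9 arrays (residual df 6, prior df 4.375, prior SD 0.06767), without trend or robust prior.

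The members, the wider list, the motifs and the tests were chosen with earlier results of these data known. All members are named. From each role of the wider list up to 4 genes past the threshold with the largest difference from control are named, and 3 nearest genes for members that differed by at least 1 log2 unit. Alternatives changed the scaling, prior, weights, filter, probe sets, arrays and threshold. Of the wider list 5 genes were not analysed here.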

Additional observations from a re-analysis of the deposited data

Results flagged for a closer look

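Tgfb2 stood above control in Pax3 arrays and below it in Pax7 arrays, and the difference between Pax7 and Pax3 arrays was -0.60 (limma adjusted p = 0.000407). Only the fall in Pax7 arrays passed against control.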

How the results depend on the processing

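Of 30 differences (10 genes in 3 comparisons) under up to 19 alternatives each, 541 of 567 values kept their direction and side of the threshold or passed in neither fit, 19 lost the call, 7 gained it and 0 reversed a called value. Many of these alternatives could not move the difference itself, so their direction was fixed in advance. Each member had a single probe set, and changes of prior, filter, block, fitted groups or threshold keep the group means. Omitting an array of the group not compared keeps them too. The counts of members and of wider pathway genes stayed within 1.5 times the main count in 110 of 114 cases. The 4 exceptions came with a required fold above 1.2, where 23, 26 and 11 wider pathway genes passed (Pax3 against control, Pax7 against control, Pax7 against Pax3) and 2 members for Pax7 against Pax3. Of all genes 16.6%, 19.4% and 3.99% passed that test. Array weights raised the count over all genes between Pax7 and Pax3 arrays from 3316 to 5348. With the replicate number as a replicate block, 6, 8 and 8 members and 47, 45 and 22 wider genes passed, and no member's call changed. Of all genes 40.2%, 44.3% and 16.9% passed with that block. Whether the numbers pair the arrays was not tested. Deviations of same-numbered arrays correlated at -0.026 to 0.225 in 9 pairs, 3 of them over 0.1. Those of differently numbered arrays correlated at -0.247 to 0.246 in 18 pairs, 3 of them over 0.1. For Mstn between Pax3 and control arrays, the block changed the standard error from 0.136 to 0.0805. Without the lowest 50% of genes, Tgfbr3 was not tested, and 66.4%, 69.6% and 32.6% of the genes kept passed in the 3 comparisons. In a fit of only the groups compared, Tgfb3 no longer passed between Pax7 and Pax3 arrays (adjusted p = 0.0853), and quantile normalising again brought Tgfb2 past in Pax3 arrays (0.18, adjusted p = 0.0411). The cause was not tested.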

Other observations

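Some deposited values were exactly equal between arrays. Of 19661 genes, 1992 (10.1%) had the same value in at least 2 of the 3 control arrays, 2332 (11.9%) in Pax3 and 2571 (13.1%) in Pax7 arrays, and in 264, 340 and 362 genes all 3 arrays were equal. Among the members this held for a pair of arrays of Tgfb1 and Tgfbr3 in Pax3 and of Tgfbr1 and Inhba in Pax7 arrays. The small SDs of those groups include such equal values.

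Array weights estimated from all genes ran from 0.271 for Pax3 replicate 3 to 2.36 for Pax3 replicate 1, and a gene's median SD within a group was 0.0766 for Pax3, 0.0552 for control and 0.0474 for Pax7.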
